A study of Vitis vinifera with 12 samples.

Results

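Bangalore blue peel was compared with the peels of Red globe and Dilkhush jointly, to describe the table rows in which the Bangalore blue value lay at least 4-fold above, or at least 4-fold below, both other cultivars. A row of the deposited table is a gene, or a few genes that share a row. The 4-fold size was measured on RPKM + 1 (RPKM, reads scaled by transcript length and by the mapped reads of the column), so it equals a difference of 2 in log2(RPKM + 1). A row also had to reach 10 RPKM in the higher cultivar of each comparison, which for rows low in Bangalore blue means 10 RPKM in both others, and transfer RNA rows were left out. The rule gave 187 rows out of 25210, of which 104 were higher and 83 lower in Bangalore blue. The peel values themselves chose these rows, so those values are given as a description and nothing is tested with them.

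The series measured messenger RNA in young leaves and fruit peels of 3 grape cultivars: Red globe, Dilkhush and Bangalore blue. It describes them as differing in their content of anthocyanin. Each cultivar and tissue had 2 libraries, 12 in all, 6 of them from peel. No treatment, berry age or ripening stage is given in the labels, and they do not say whether the libraries of a group came from separate plants. Bangalore blue is generally classed with the labrusca-type grapes, while the labels give Vitis vinifera for every library. The deposited peel table has 1 value per cultivar, so no value below has a replicate error, no p-value is printed and no difference could be weighed against the spread of replicates.

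Grape peel, the berry skin, is where red and black cultivars store anthocyanins, the flavonoid pigments. Chalcone synthase opens the flavonoid pathway, hydroxylases set how many hydroxyl groups the B-ring of the molecule carries, a dioxygenase forms the coloured anthocyanidin, and glucosyltransferases, methyltransferases and glutathione S-transferases then stabilise, decorate and carry the pigment to the vacuole. Skin is also the outer barrier of the berry, and ripe skin is known for large amounts of pathogenesis-related proteins such as thaumatin-like proteins and chitinases.

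The tissue label was checked against ripening and chloroplast genes. GRIP22, a ripening-induced gene, was 11936 RPKM in the peel of Bangalore blue, 1944 in that of Red globe and 9404 in that of Dilkhush, and between 3.10 and 5.22 RPKM in the leaf columns. CHLH, a subunit of the enzyme that puts magnesium into chlorophyll, was 37.2, 29.95 and 48.2 RPKM in the peels in the same order and between 138 and 629 RPKM in the leaves. Some other markers overlapped between the tissues. UFGT and GST4, pigment genes on the ripening list, were 2.09 and 9.86 RPKM in Dilkhush peel but 7.87 and 53.2 in its leaf. CHI4C, also on it, was between 14.5 and 39.1 RPKM in the peels and between 8.56 and 28.5 in the leaves. PSBP1, a chloroplast gene, was 483 RPKM in Dilkhush peel and 494 in Red globe leaf. Each table was normalized on its own, so these levels are set side by side only as a check of the label. Summed over 10 ripening rows, Bangalore blue peel stood at 48265 RPKM, Red globe at 18697 and Dilkhush at 26689, and none of these rows was at 0. Summed over 4 chloroplast rows the peels stood at 406, 282 and 558 RPKM. Bangalore blue was highest in 5 of the 10 ripening rows and lowest in 4. The TL3 row and TL1, both described below, carried much of its sum. Without them Dilkhush had the highest sum, at 21747 RPKM, ahead of Bangalore blue at 21002 and Red globe at 14369. Ripening and chloroplast genes thus stood at unequal levels in the 3 peels, and their part in the results was not tested. In bulk tissue, fewer cells of a type and less RNA per cell cannot be told apart.

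Of 10014 peel rows at 10 RPKM or more in at least 1 cultivar, 1.04% were called as higher in Bangalore blue and 0.829% as lower, against both others. The same rule gave 105 rows higher (1.05%) and 65 lower (0.649%) for Red globe. It gave 161 higher (1.61%) and 58 lower (0.579%) for Dilkhush. By number of rows, then, Bangalore blue peel held more low rows than either other cultivar, and its number of high rows was nearly that of Red globe. Against Red globe alone, 226 rows were higher in Bangalore blue (2.39% of 9455 rows at 10 RPKM in that pair) and 271 lower (2.87%). Against Dilkhush alone, 226 were higher (2.37% of 9547) and 356 lower (3.73%). These differences share the Bangalore blue column, so agreement of the 2 differences in a row is partly built in.

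**Figure D1:**
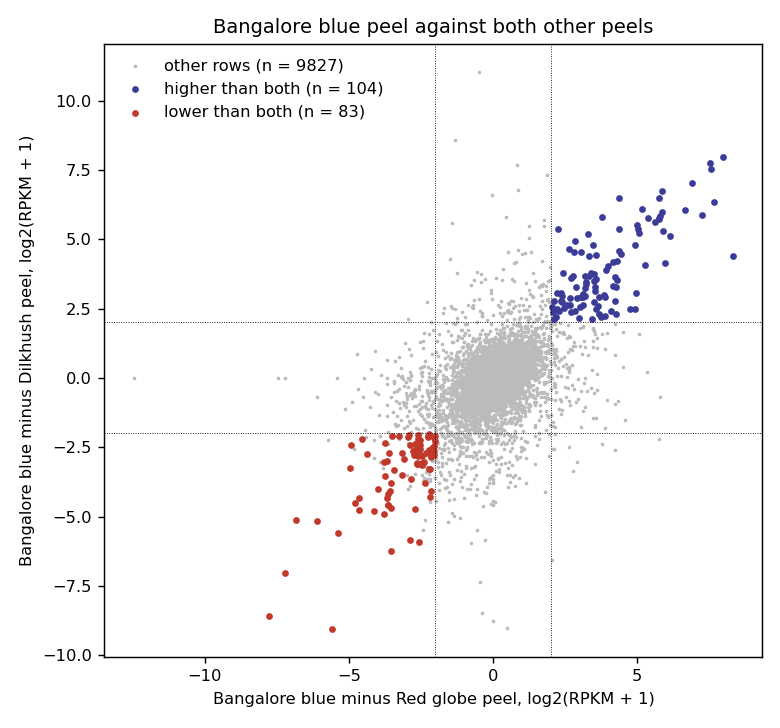
Each point is a peel row at 10 RPKM or more in at least 1 cultivar, with the log2(RPKM + 1) difference of Bangalore blue from Red globe on the x axis and from Dilkhush on the y axis. Dotted lines mark the 4-fold size, with 104 called rows beyond it in the upper right corner and 83 in the lower left. Grey points in the lower left corner fell short of 10 RPKM in the lower of the other cultivars.

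Among the 104 higher rows, Bangalore blue ranged from 10.25 to 23183 RPKM with a median of 45.5. Red globe had a median of 1.03 and Dilkhush of 1.57 RPKM over the same rows. The smaller of both differences had a median of 3.15 on the log2 scale, and in 56 rows it was 8-fold or more. In 35 rows both other cultivars were below 1 RPKM, and in 9 they were both listed at 0. In 15 rows, by contrast, both others were themselves at 10 RPKM or more. Red globe and Dilkhush lay within 2-fold of each other in 75 of the 104 rows, again on RPKM + 1. The 35 rows with both below 1 RPKM are within 2-fold by construction on that scale. The share over all rows was not computed, so nothing is read from this count.

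Of the higher rows 6 carry a gene symbol, and these include pigment, detoxification and defence genes. CHS3, a chalcone synthase, was 2096 RPKM in Bangalore blue, with 443 for Red globe and 49.7 for Dilkhush. The values formed a graded series, with Bangalore blue highest (log2 differences 2.24 and 5.37) and Red globe in the middle. Close copies of chalcone synthase share reads, so the split between CHS rows is uncertain. F3'5'H, the hydroxylase that leads towards the blue delphinidin-type pigments, was 37.4 RPKM in Bangalore blue, with 0.152 for Red globe and 0.0341 for Dilkhush. Here there was no grading, since both other peels were near 0 (log2 differences 5.06 and 5.22).

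GST3, a glutathione S-transferase, stood at 44.9 RPKM for Bangalore blue, at 0.441 for Red globe (log2 difference 4.99) and, listed so, at 0 for Dilkhush (5.52). Its pattern differed from that of GST4, the transferase of anthocyanin transport, at 2246, 1279 and 9.86 RPKM in the same order: GST4 was high in both Bangalore blue and Red globe and was not called. GT3, given only by that symbol, was 11.1 RPKM in Bangalore blue against 1.36 and 0.765, close to the 10 RPKM floor.

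The most abundant row called was that of TL3, a thaumatin-like protein of the pathogenesis-related class. It was 23183 RPKM in Bangalore blue, with 3959 for Red globe and 3779 for Dilkhush, so that both others were high and nearly equal (log2 differences 2.55 and 2.62). The row also carries LOC100242737 and LOC100246096, and its reads cannot be assigned to a single gene. In the gene order of the reference, LOC100265026 stands directly next to TL3, with 1 gene between it and LOC100246096. LOC100265026 has its own row and was called too, at 275 RPKM in Bangalore blue, with 38.0 for Red globe and 7.95 for Dilkhush. This was the 1 place where called higher genes stood directly beside each other; in a further pair, LOC100855151 and LOC100855076, each in a row shared with another name, 1 gene lay between them. VVYS1, named here without a role, was 563 RPKM in Bangalore blue against 73.4 in Red globe and 75.4 in Dilkhush (log2 differences 2.92 and 2.88).

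The remaining 98 higher rows are known only by LOC numbers, for which the files and the reference give no product, so they are described by their values. LOC100854873 was 186 RPKM in Bangalore blue but listed at 0 in both other peels. LOC100852506 was 214 RPKM against 0.186 in Red globe, and it was listed at 0 in Dilkhush. LOC100247195 behaved alike, at 131 RPKM against 0.121 and a listing at 0. These 3 protein-coding genes were thus near or at 0 outside Bangalore blue.

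LOC100253073, at 436 RPKM in Bangalore blue, was low but above 1 RPKM in Red globe (6.56) and Dilkhush (3.14). LOC100246529 was 185 RPKM against 0.239 and 2.15, and LOC100262536 was 104 against 0.948 and 0.153. LOC100258789 was 99.6 RPKM in Bangalore blue, listed at 0 in Red globe and at 0.529 in Dilkhush. The rest of the 10 protein-coding genes of largest difference were LOC100854267, LOC100252668 and LOC100265092, which lay between 54.1 and 69.0 RPKM in Bangalore blue and at or under 0.331 in both others. Of rows absent from the reference table, LOC104878897 was 251 RPKM in Bangalore blue but listed at 0 in both others, and LOC100249859 was 202 RPKM against 0 and 1.48.

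Red globe and Dilkhush differed from each other by 4-fold or more in 8 of the higher rows, CHS3 and LOC100265026 among them. Red globe was the higher of the 2 in 5 of these. LOC100853652 was 366 RPKM in Bangalore blue, with 25.8 for Red globe and 5.55 for Dilkhush. In the other direction, LOC100855221 was 388, 0.235 and 17.5 RPKM and LOC100260288 was 430, 13.3 and 76.4 RPKM in that order. A middle value thus fell to Red globe in some of these rows and to Dilkhush in others.

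**Figure D2:**
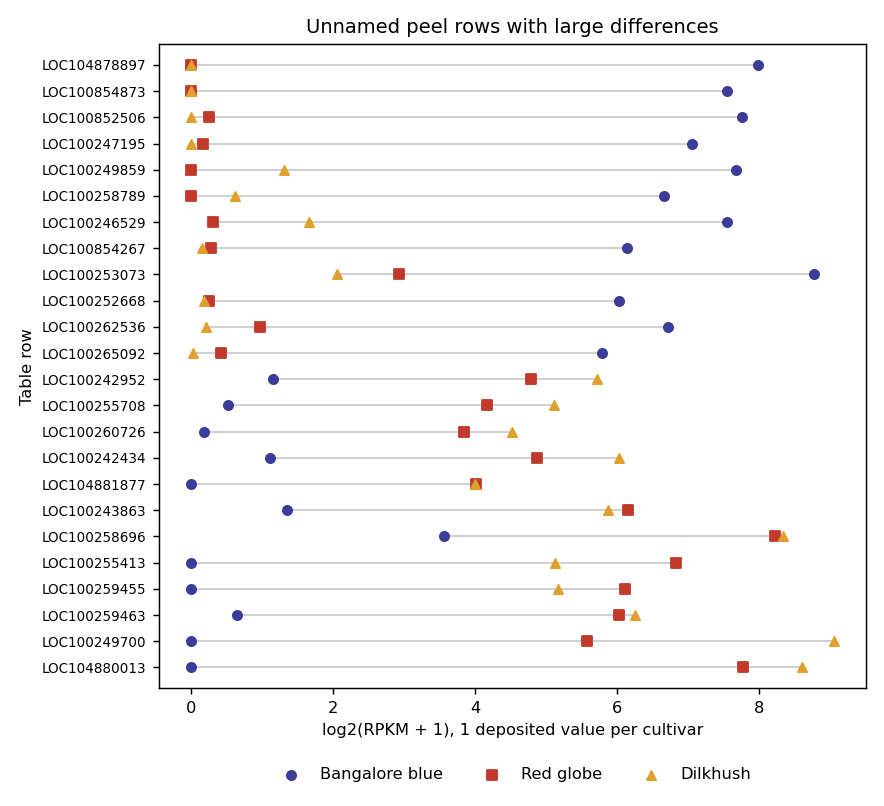
Peel level of 12 unnamed rows in each direction, the 10 largest differences among rows with a protein-coding gene in the reference and the 2 largest among rows absent from it, as log2(RPKM + 1) with 1 deposited value per cultivar and no error bar; a grey line joins the lowest and highest cultivar. In the upper 12 rows Bangalore blue lies between 54.1 and 436 RPKM, and in the lower 12 between 0 and 10.8 RPKM.

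The 83 lower rows were of smaller size. Bangalore blue had a median of 2.52 RPKM in them, Red globe 29.3 and Dilkhush 37.5, and the smaller difference had a median of -2.59 on the log2 scale. In 25 rows the difference was 8-fold or more. Bangalore blue was below 1 RPKM in 18 of them and listed at 0 in 9, but in 17 it was itself at 10 RPKM or more. Red globe and Dilkhush lay within 2-fold of each other in 63 of the 83 rows, again without a share over all rows to set beside it.

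IFRL6, an isoflavone reductase-like gene of the reductase family that modifies phenolic compounds, was the 1 lower row with a symbol. It was 12.7 RPKM in Bangalore blue, with 157 for Red globe and 189 for Dilkhush (log2 differences -3.53 and -3.80), so both others were high and nearly equal. Among LOC numbers, LOC100258696 had a like pattern at 10.8, 296 and 320 RPKM. At the top of the range of level, LOC100242603 was 453 RPKM in Bangalore blue against 3326 and 2405, and LOC100257455 was 308 against 1909 and 2634; both were named after their values were seen.

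Other low rows were at or close to 0 in Bangalore blue. LOC100255413 was listed at 0 in it, and at 113 RPKM in Red globe and 33.7 in Dilkhush. A row of LOC100259455 was also listed at 0, against 68.0 and 34.7 RPKM, and LOC100259463 was 0.564 against 63.9 and 75.2. LOC100243863 was 1.55 RPKM against 70.3 and 57.4. The remaining 5 of the 10 protein-coding genes of largest difference lay between 0 and 1.21 RPKM in Bangalore blue and between 13.4 and 63.8 RPKM in the others. LOC104880013, absent from the reference table, was listed at 0 in Bangalore blue against 217 and 387 RPKM. In leaf it was listed at 0 in Red globe as well as Bangalore blue, and was 205 RPKM in Dilkhush. A row of LOC100249700 was 0 in Bangalore blue peel against 46.7 and 531. The names LOC100259455 and LOC100249700 each occur in a further row, so their values are uncertain. The long noncoding RNA row LOC104882023, named after its values were seen, was listed at 0 against 147 and 130 RPKM.

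LOC104881900 and LOC104881877, whose names also occur in other rows, stand directly beside each other in the reference gene order. Their called rows were both listed at 0 in Bangalore blue, at 11.4 and 15.1 RPKM in Red globe and at 17.2 and 14.9 RPKM in Dilkhush. LOC100247409 also neighbours a called gene, LOC100252577, which shares its row with LOC100257713. The former was 0.763 RPKM in Bangalore blue against 21.7 and 13.1, and the latter row 1.62 against 28.9 and 10.09. Red globe and Dilkhush differed by 4-fold or more in 8 of the lower rows, with Dilkhush the higher in 6. LOC100240909 was such a row, at 18.3 RPKM in Bangalore blue, with 114 for Red globe and 1163 for Dilkhush, again chosen after its values were seen.

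Rows at 0 need care in this cultivar. Listed at 0 were 18.4% of all rows but transfer RNA in Bangalore blue peel, 16.02% in Red globe and 15.8% in Dilkhush. Rows listed at 0 in 1 cultivar and at 10 RPKM or more in both others numbered 9 for Bangalore blue, 2 for Red globe and 4 for Dilkhush peel. In leaf the same numbers were 1, 4 and 6, and the share of rows at 0 was 9.38%, 9.40% and 11.3%. Some of the called rows at 0 in Bangalore blue peel had a match in leaf. In Bangalore blue leaf, LOC104882023 was 156 RPKM, LOC104877540 59.8, LOC100255413 1.54 and LOC100245690 0.758. LOC104880013 was listed at 0 there too. Reads that differ from the reference sequence can go uncounted, and their part in the peel rows at 0 was not tested.

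Rows near the threshold ranged widely in level. LOC100266673, at 14.1 RPKM against 2.62 and 1.57 (smaller difference 2.06), and LOC100255764, at 539 against 126 and 102 (2.09), were the higher rows just inside. LOC104880676, at 11.4 RPKM against 2.13 and 1.99, and LOC100241949, at 46.6 against 11.0 and 8.75, were just outside, both at 1.99. Below, LOC100262126 and LOC100260776 were inside at -2.01, with 1.83 and 3.59 RPKM in Bangalore blue. A row of CBL01, a calcium sensor of the calcineurin B-like family, was just outside at 1249 RPKM against 4976 and 6462 (-1.99). So was LOC100255729 (-1.99). Another row of CBL01 had log2 differences of only -0.497 from Red globe and -0.278 from Dilkhush.

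Since few called rows have a symbol, all named rows at least 2-fold from both other cultivars were also described, a size chosen after the data were seen. At that size 3.34% of all 10014 rows were higher and 2.74% lower. Among the 197 named rows at 10 RPKM or more, 19 were higher (9.64%) and 15 lower (7.61%). Named genes were picked by earlier work for other reasons, and nothing is read from their share. The 13 higher and 14 lower rows that were 2-fold but not 4-fold are given next.

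In the flavonoid pathway, LDOX, the dioxygenase that forms anthocyanidins, was 2010 RPKM in Bangalore blue, with 510 for Red globe and 171 for Dilkhush, just under the 4-fold size (smaller difference 1.98). F3H, the flavanone hydroxylase, was 277, 117 and 7.48 RPKM, and 1 of 2 CHS rows was 151, 71.3 and 52.4. FAOMT, which methylates anthocyanins, was 50.8 and 14.1 RPKM and listed at 0 in Dilkhush. All 4 had the same order of cultivars as CHS3. Regulators of the MYB family joined them: MYBC2-L1, a repressor, was 92.0 RPKM against 25.7 and 21.5, and MYB14, an activator of stilbene synthase genes, was 12.5 against 4.71 and 1.25. The stilbene synthase rows were not highest in Bangalore blue. STS rows were 5.68 RPKM against 12.1 and 0.720 and 7.33 against 26.4 and 0.434, and VINST1 was 3.48 against 12.95 and 0.134. LAR2, which leads flavonoids into tannins as a leucoanthocyanidin reductase, went the other way at 3.92 RPKM against 14.3 and 61.8.

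LOXA, a lipoxygenase, which forms fatty acid hydroperoxides, was 840 RPKM in Bangalore blue against 255 in Red globe and 374 in Dilkhush. HPLA, a hydroperoxide lyase that makes short-chain aldehydes of green aroma from lipoxygenase products, was 787 against 343 and 311. ADH1, an alcohol dehydrogenase, was in contrast 9.88 RPKM against 42.5 and 22.7. IFRL4, of the family of IFRL6, was also low, at 5.80 RPKM against 61.0 and 18.4.

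In the defence group TL1, a thaumatin-like protein, was 4081 RPKM against 369 in Red globe and 1163 in Dilkhush, while the class IV chitinase CHI4C was 14.5 against 36.5 and 39.1. MLO15 belongs to the MLO family, known for its role in powdery mildew infection, and was 8.90 RPKM against 83.0 and 33.3. Of the germin-like genes, GER7 was 29.6 against 11.4 and 0.313 RPKM and GER6 was 2.53 against 10.5 and 18.0, so the family did not move as a block.

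Both rows of CIPK16, a kinase of the CBL-interacting family, were higher in Bangalore blue, at 15.6 RPKM against 3.76 and 1.65 and at 34.1 against 10.09 and 3.43. Of 22 CBL and CIPK rows at 10 RPKM, counted after the data were seen, 3 were 2-fold from both others in the same direction: these and the low CBL01 row given above. The ripening-induced rows GRIP31 and GRIP4 were low in it, at 655 RPKM against 1573 and 1685 and at 578 against 3537 and 1334. PIP2;3, a plasma membrane aquaporin, was 31.2 RPKM against 99.6 and 269, and CYP716A15, a triterpene oxidase, was 48.3 against 105 and 239. Of the nitrogen genes, glutamate dehydrogenase GDHB was 2.89 RPKM against 14.3 and 27.7 and 1 of 3 glutamine synthetase rows (GS) was 29.0 against 84.3 and 66.8. ACBP, an acyl-CoA-binding protein, was 45.8 RPKM against 21.7 and 21.0, and GFH2, named without a role, was 12.8 against 34.1 and 172.

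**Figure D3:**
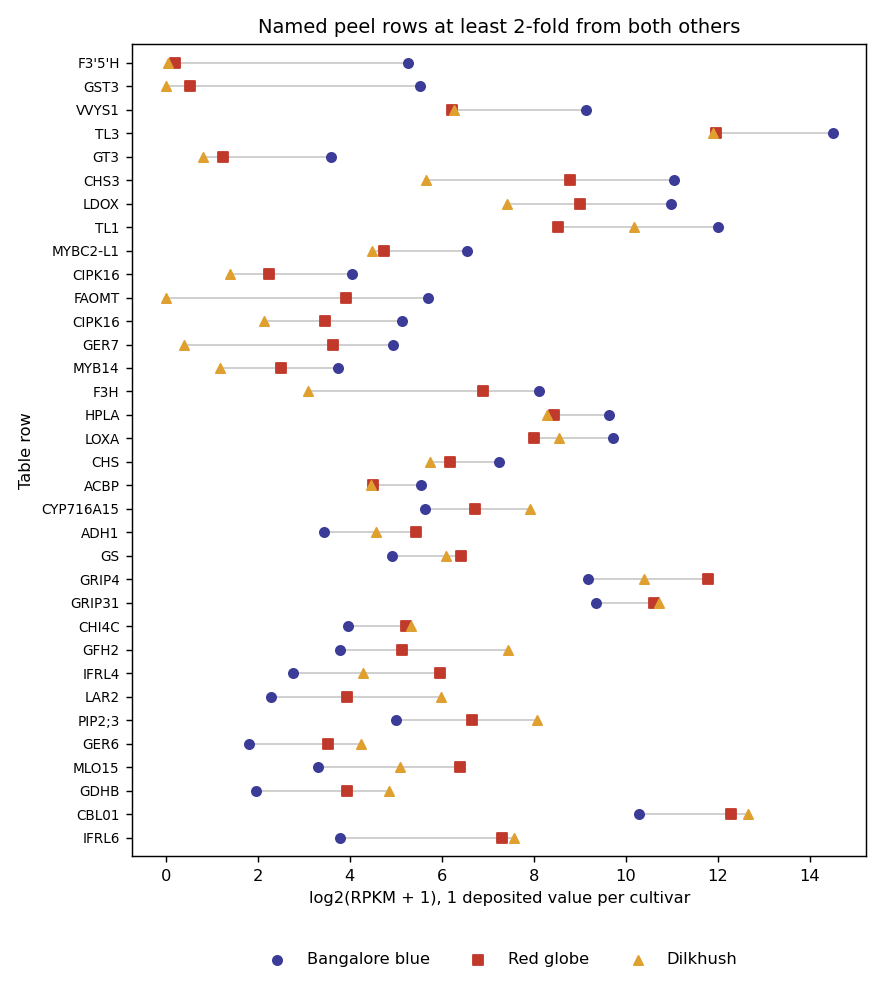
Peel level of all 34 named rows at least 2-fold from both other cultivars in the same direction, as log2(RPKM + 1) with 1 deposited value per cultivar and no error bar, ordered by the smaller difference. The upper 19 rows have Bangalore blue at the right end and the lower 15 at the left; F3'5'H and GST3 have both other cultivars near 0, whereas CHS3, F3H and FAOMT show Red globe in the middle.

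The lists of pathway genes showed where these rows stand among their neighbours in function. Of 27 lists, 19 matched at least 1 row by symbol, with 68 distinct rows at 10 RPKM or more. Of these 68, 5 were called higher and 0 lower. The called shares were 1.04% and 0.829% over all 10014 rows, and 3.05% and 0.508% over the 197 named rows. IFRL6, the lower row with a symbol, was on no list, so nothing is read from 5 against 0. The late anthocyanin list had 7 such rows, with Bangalore blue highest in 5 and lowest in 0, and 1 called (F3'5'H); its median log2 difference was 0.81 from Red globe and 5.22 from Dilkhush, against 0.02 and -0.08 over all 10014 rows. The rows where it was not highest were UFGT, at 297 RPKM against 308 in Red globe and 2.09 in Dilkhush, and F3'H. The F3'H row, shared with LOC100263810, was 42.0 RPKM against 42.8 and 18.0. In both, Bangalore blue was thus nearly level with Red globe. Scaled to equal medians, Bangalore blue was highest in 6 of the 7. Over all 10014 rows it was highest in 30.4%, or in 34.6% at equal medians. In the early flavonoid list Bangalore blue was highest in 5 of 5 rows, with CHS3 called, and the medians were 1.07 and 1.51. These rows include CHS3 and both CHS rows, which can share reads. The proanthocyanidin list ran the other way, with Bangalore blue lowest in 2 of 2 rows, LAR2 and the tannin regulator MYBPA1 (6.33 RPKM against 13.5 and 10.903).

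Of 11 MYB, bHLH and WD-repeat regulator rows, 6 reached 10 RPKM in at least 1 peel. Among these 6 Bangalore blue was highest in 5 and none was called. The floor shaped this count, since MYC1 reached it only in Bangalore blue. MYCA1, at 3.59 RPKM against 8.33 and 8.91, and MYB4B, at 0.288 against 1.13 and 1.33, fell short of it and were lowest in Bangalore blue. LOC100853472, a row whose synonyms include mybA and MybA1, names of anthocyanin activators, was 102 RPKM against 36.1 and 22.5. The bHLH partner of such activators, MYC1, was 10.31 against 6.67 and 6.27 RPKM, and WDR1, a WD-repeat partner, was 33.8 against 17.3 and 22.3. MYB4A, a repressor, was 141 against 93.4 and 77.3. WDR2, the row of these 6 where Bangalore blue was not highest, was 23.0 against 27.9 and 26.8. FLS1, the flavonol synthase, was 78.9 against 22.1 and 40.6 RPKM.

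Of 10 pathogenesis-related rows, Bangalore blue was highest in 5 and lowest in 2, with the TL3 row called. It was lowest in CHIT3, at 0.569 RPKM against 11.7 and 0.726, and in PR10.9, at 1.91 against 18.0 and 3.52. The PR-1 row was 5.98 RPKM against 0.705 in Red globe and 670 in Dilkhush. CHI4C, low in Bangalore blue as given above, was not on this list. CHI4D, another class IV chitinase, was 14522 RPKM against 12106 and 8177, and a chitinase row (LOC100232985, synonym CHIT1B) was 12.6 against 4.59 and 4.41. In PR10.7 it stood beside Dilkhush, at 58.1 RPKM against 3.92 in Red globe and 52.8 in Dilkhush, and in PR10.3 beside Red globe, at 257 against 424 and 42.4. Bangalore blue was highest in 1 of 8 sugar transport and invertase rows, 1 of 8 aquaporin rows, 1 of 4 photosynthesis rows, 1 of 4 stilbene rows and 1 of 4 abscisic acid and dehydration rows, where over all 10014 rows its share was 30.4%. Scaling to equal medians or to equal totals without transfer RNA left these 5 counts and those of the early flavonoid, proanthocyanidin, regulator and pathogenesis-related lists as they were. TIP2;1, a tonoplast aquaporin, was the aquaporin row in question, at 876 RPKM against 159 and 518, and MYB14 was the stilbene row. No row of these 5 lists was called. Of the glutathione S-transferase list GST3 and GST4 reached 10 RPKM and both were highest in Bangalore blue. In the phenylpropanoid, ethylene and auxin, acyltransferase, cell wall and heat shock lists, with 7 such rows between them, it was highest in 2, or in 3 with equal totals, and none was called.

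The leaf table offered values of the same genes in libraries the rule had not used. Of the 104 higher rows, 91 had a row of the same unique name in leaf, and 20 of them were also called higher in Bangalore blue leaf than in both other leaves; 0 were called lower. Over all 9406 rows matched in this way and at 10 RPKM or more in a peel column, 0.787% were called higher in Bangalore blue leaf and 0.149% lower. Of the 83 lower rows 73 were matched, with 4 called lower in leaf and 0 higher. Over the whole leaf table, with 12057 rows at 10 RPKM, these shares were 1.21% and 0.216% for Bangalore blue, 0.995% and 0.962% for Red globe, and 0.805% and 0.813% for Dilkhush. The like counts of peel rows were 9 of 88 higher rows for Red globe (leaf background 0.489%) and 8 of 151 for Dilkhush (0.34%). For lower rows they were 3 of 57 (0.606%) and 3 of 51 (0.702%). Leaf and peel of a cultivar share its genome and reference, and no test of these counts was made.

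GST3 was the named gene among the 20: in leaf it was 18.4 RPKM in Bangalore blue, with 1.49 for Red globe and 1.40 for Dilkhush (log2 differences 2.96 and 3.01). LOC104878897 was 193 RPKM in Bangalore blue leaf and listed at 0 in both others, as in peel. LOC104880964 was 52.4 RPKM in peel and 56.1 in leaf of Bangalore blue, and the long noncoding RNA row LOC104882265 was 48.4 and 48.2, while all 4 values of the other cultivars were listed at 0 for each. LOC100257357 likewise was 10.95 RPKM in peel and 42.7 in leaf with 4 values listed at 0.

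LOC100249859 was 83.9 RPKM in Bangalore blue leaf against 0.343 and 0.647. LOC100259232 was 31.2 RPKM in peel and 101 in leaf of Bangalore blue, against at most 3.001 in any other column. LOC100261369 was 24.5 and 45.5 RPKM, against at most 0.396, and LOC100259577 was 12.9 and 35.8, against at most 0.572. In all, 9 matched rows had at least 10 RPKM in both tissues of Bangalore blue and below 1 RPKM in all 4 columns of the others. For Red globe there were 4 such rows and for Dilkhush 2.

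Of the lower rows, LOC100259463 was 0.0236 RPKM in Bangalore blue leaf against 15.8 in Red globe and 23.8 in Dilkhush. It was the 1 matched row below 1 RPKM in both tissues of Bangalore blue and at 10 RPKM or more in all columns of the others. LOC100855105 was 4.31 RPKM against 61.6 and 87.7 in peel and 0.606 against 56.8 and 62.1 in leaf. LOC100258179 and LOC100255589 were 2.42 and 2.09 RPKM in Bangalore blue leaf, and between 12.7 and 35.7 RPKM in the other leaves.

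The other matched rows, 71 higher and 69 lower, were not called in leaf. Of these, 3 higher and 3 lower rows did lie at least 4-fold from both other leaves in the same direction and missed only the floor. LOC100260274, named after its values were seen, was 9.81 RPKM in Bangalore blue leaf against 0.0585 and 0.0691. All 3 leaf columns were below 1 RPKM in 18 of the higher rows, LOC100852506 and LOC100247195 among them, and in 0 of the lower rows. Where a leaf column reached 10 RPKM, Bangalore blue leaf was the highest in 34 of 52 higher rows and the lowest in 10. For all 11354 matched rows at that leaf level it was highest in 28.6% and lowest in 33.9%. The floor shaped the count of 34, since rows such as GST3 reached it only in Bangalore blue leaf. Such rows were highest there by construction, and their number was not counted. Nothing is thus read from the 34. In the lower rows Bangalore blue leaf was lowest in 35 of 59 and highest in 7. F3'5'H was 28.1 RPKM in Bangalore blue leaf, 12.5 in Red globe and 29.3 in Dilkhush, and CHS3 was 176, 70.5 and 135, so the large peel gap from Dilkhush was absent in leaf for both. IFRL6 was 16.2, 20.5 and 20.7 RPKM in the leaves. GT3 was highest in Red globe leaf, at 25.5 RPKM against 6.23 in Bangalore blue and 6.34 in Dilkhush.

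**Figure D4:**
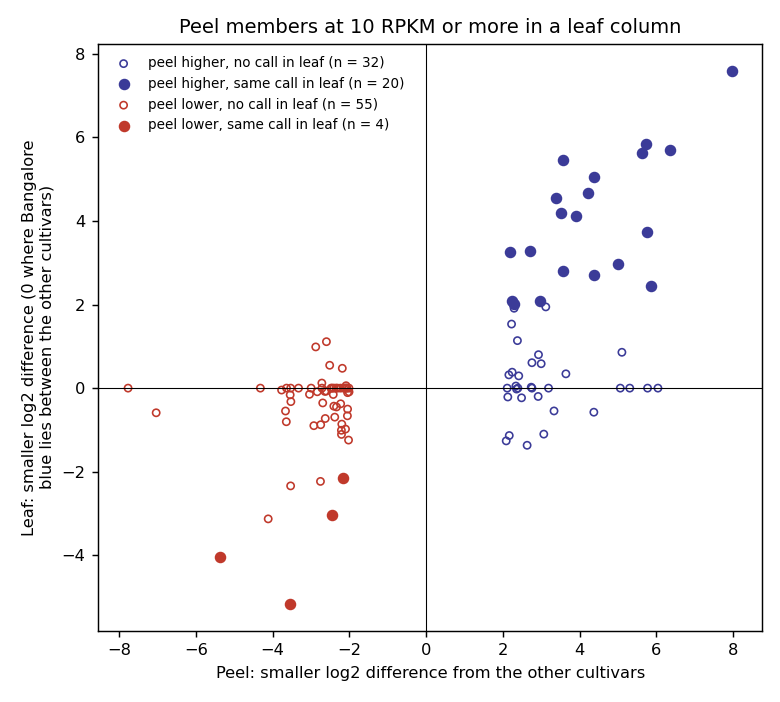
The peel rows with a leaf column at 10 RPKM or more, 52 higher and 59 lower, plotted by the smaller log2(RPKM + 1) difference of Bangalore blue from both other cultivars in peel (x axis) and in leaf (y axis, 0 where Bangalore blue lies between the others). Filled points are the 20 higher and 4 lower rows called the same way in leaf; the open points reach from -1.37 to 1.94 in leaf for higher rows and from -3.13 to 1.11 for lower rows, and 24 of 32 and 48 of 55 of them lie under 2-fold.

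What kind of gene the rows are was also looked up, which the rule had not used. Rows with a protein-coding gene made up 75.0% of the higher rows and 83.1% of the lower rows, against 94.5% of all 10014 rows. LOC numbers absent from the reference table were 17 of the 104 higher rows (16.3%) and 9 of the 83 lower rows (10.8%), where the share over all rows was 3.19%. Pseudogenes were 6 of the higher rows (5.77%) and 1 of the lower rows (1.20%), against 0.439%. LOC100242620, annotated as a pseudogene, was 111 RPKM in Bangalore blue peel against 2.13 and 0.648. Rows of this kind can share reads with near copies elsewhere, and their values are uncertain for that reason.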

How the data were processed

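RNA of young leaves and fruit peels was extracted with a plant RNA kit and made into strand-keeping mRNA libraries, as the labels' protocols say. The submitters' processing notes name Cufflinks 2.2.1 and TopHat2 2.1.1, without their roles. How 2 libraries became 1 column, the genome build and the annotation were not given in the sources used here. Per the file headers, the authors deposited RPKM, with 1 column per cultivar in each of the tables for peel and leaf. RPKM is relative to all reads of a column, so a row with a large share lowers every other value: transfer RNA rows held 13.8% of summed RPKM in Bangalore blue peel, 33.6% in Red globe and 20.7% in Dilkhush. Depth is unknown: low values (under 0.05 RPKM) showed no steps of whole reads, since the commonest ratio between columns held at most 3.98% of rows. No counting interval or limit is given for that reason, and 0 means listed at 0.

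Calls used log2(RPKM + 1), a difference of at least 2 and the floor of 10 RPKM, with pandas 2.3.3 and numpy 2.4.6. The code was run on simulated columns with planted changes. That checks the code only, since the noise was set by hand and these data hold no replicate spread. With 1 column per group no test against replicates could be fitted. Rows with several gene names (672) or a repeated name (653) are uncertain. Leaf rows were matched by names that occur once in each table. Biotypes and gene order came from a RefSeq table of another assembly, GCF_030704535.1, which held 22513 of 25116 LOC numbers; no coordinates are given. It holds no products, so lists were matched by symbol or synonym, and 8 of 27 lists (cytochrome P450, terpene synthase, resistance, receptor kinase, wax and lipid transfer, seed, cell division and transposon genes) matched no row; markers of seed and dividing cells were thus not analysed here. The members, lists and alternatives were chosen with earlier results of these data known. Named are all called rows with a symbol, the 10 largest differences each way with a protein in the reference, 2 each way absent from it, list rows, neighbours, rows nearest the threshold and up to 8 rows each way also called in leaf. Alternatives were a pseudocount of 0.1, no floor, a floor of 5 RPKM, a floor in the higher of the other cultivars only, equal medians, equal totals without transfer RNA, single-name rows, and 8-fold and, added later, 2-fold sizes.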

Additional observations from a re-analysis of the deposited data

Results flagged for a closer look

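In 4 called rows Bangalore blue stood on opposite sides of both other cultivars in peel and in leaf, by at least 2-fold in leaf with the 10 RPKM floor met there; each is 1 column per cultivar, and the difference between tissues was not tested. LOC104880458, absent from the reference table, was 686 RPKM in Bangalore blue peel against 21.3 in Red globe and 81.0 in Dilkhush, but 329 in leaf against 1685 and 707 (smaller leaf difference -1.10). LOC100255764 was 539 RPKM against 126 and 102 in peel and 274 against 1115 and 658 in leaf (-1.26). LOC100245274 was 273 RPKM against 60.1 and 58.9 in peel and 25.5 against 167 and 57.1 in leaf (-1.13). The long noncoding RNA row LOC100855149 went the other way, at 7.02 RPKM against 47.6 and 67.5 in peel and 10.36 against 4.01 and 4.26 in leaf (1.11). LOC100261446, short of that floor in Dilkhush leaf, was 68.1 RPKM against 10.16 and 1.76 in peel and 2.30 against 13.8 and 7.53 in leaf (-1.37).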

How the results depend on the processing

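The 104 higher and 83 lower rows became 108 and 80 with equal totals without transfer RNA, 117 and 75 with equal medians, 115 and 103 with a pseudocount of 0.1, and 95 and 73 for single-name rows. All 104 higher rows were called again under the first 3 of these settings, and 74, 75 and 83 of the lower rows. Without a floor there were 151 higher and 149 lower rows, and a floor of 5 RPKM gave 137 and 122. A floor in the higher of the other cultivars only gave 119 lower rows. An 8-fold size left 56 and 25 rows, and 2-fold gave 334 and 274; these sizes change the counts by construction. The 24 members called the same way in leaf became 48 without a floor, 38 with a floor of 5 RPKM, 13 at 8-fold and 74 at 2-fold, and lay between 22 and 30 under the other settings. The differences of 28 named members kept their direction and stayed called under the pseudocount of 0.1 and both scalings. These 28 were rows with a symbol or among the largest differences, the smallest being CHS3 at 2.24. Rows named as nearest the threshold were not among them. Leaving out a library was not run, since the tables hold no column per library. No paired analysis was possible because the columns carry no replicate number. Values below about 1 RPKM are the least certain, and their precision is unknown without counts.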

Other observations

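Of rows held high by Bangalore blue peel and absent from the reference table, several recurred in leaf. Besides LOC104878897, LOC104880964, LOC100249859 and LOC100259232, the row LOC100855039 was 207 RPKM in Bangalore blue peel against 8.99 in Red globe and 1.33 in Dilkhush, and 161 in leaf against 24.0 and 2.44. LOC104880461, also absent from that table, was 288 RPKM against 15.1 and 27.7 in peel, but in leaf it was 271 against 1243 and 396. LOC100240763 was 94.8 RPKM against 3.63 and 1.33 in peel, and 186 against 402 and 277 in leaf, so a row can be high in every leaf column and in Bangalore blue peel while low in the other peels.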
